A study of Rattus norvegicus with 20 samples.

Results

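Gene expression 6 hours after brief isoflurane anaesthesia was compared with that after oxygen alone in the 9 arrays of the series that carried a cortex-like profile. They comprised 5 isoflurane and 4 oxygen arrays, out of 20 arrays in all (10 and 10). The arrays were chosen by a measured value. Pcp2, a gene of cerebellar Purkinje cells, had a signal below 12 on the log2 scale in these 9 arrays, which took in isoflurane replicates 2, 4, 5, 6 and 10 and oxygen replicates 1 to 4. The highest array inside this limit was isoflurane replicate 10 at 10.67, and the lowest array outside it was oxygen replicate 7 at 13.60. The groups were male Sprague Dawley rats, aged 20 weeks and weighing 250 to 300 g. The isoflurane rats breathed 2% isoflurane carried in oxygen, equal to 1.4 MAC (the minimum alveolar concentration, a unit of anaesthetic dose), for 15 minutes. The control rats breathed pure oxygen for the same time, and all rats then recovered for 6 hours before the tissue was taken. All 20 samples were labelled as dissected cortex, and total RNA was hybridised to Affymetrix rat arrays, with samples labelled as biological replicates. Beyond that label nothing states how rats were housed, dissected or processed together, so the tests measure the spread between these arrays.

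Isoflurane is a volatile anaesthetic that strengthens GABA-A receptor currents, opens leak potassium channels and lowers transmitter release at synapses. The cortex is built from glutamatergic projection neurons, GABAergic interneurons, glia and vessels, and its projection neurons carry transcription factors such as Fezf2, Emx1 and Neurod2. Neuronal activity drives immediate early genes, and a molecular clock runs in most cortical cells, so both sets of transcripts depend on activity and on time of day.

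The cortical label was first checked against marker genes in the 9 arrays. Levels are log2 MAS5 signals, which are compared between arrays for the same gene and not between genes. Fezf2, which specifies deep-layer projection neurons, read 9.12, 8.69, 9.04 and 9.06 in oxygen replicates 1 to 4, and 9.35, 9.27, 9.43 and 9.38 in isoflurane replicates 2, 4, 5 and 6. It read 8.78 in isoflurane replicate 10. Emx1, a transcription factor of the cortical lineage, lay between 8.37 and 8.93 in all 9 arrays. Both genes were above the other 11 arrays, whose highest values were 6.96 for Fezf2 and 7.28 for Emx1. Neurod2, a transcription factor of glutamatergic neurons, did not separate the arrays in this way: it ran from 8.40 to 9.98 in the 9 arrays and from 9.16 to 10.29 in the other 11. None of the 3 genes differed between isoflurane and oxygen at an adjusted p under 0.05 (limma, Benjamini-Hochberg), with differences of 0.26 (adjusted p = 0.285), -0.25 (0.192) and 0.66 (0.105). Tbr1, a further cortex marker, read 6.47 to 8.31 in oxygen, 3.99 to 5.38 in isoflurane replicates 2, 4, 5 and 6, and 7.66 in replicate 10. It ran from 1.24 to 5.87 in the other 11, and its difference was -2.10 (limma, adjusted p = 0.0634). The cortex markers Neurod6 (9.77 to 10.92 against 9.65 to 10.33) and Slc17a7 (11.31 to 13.06 against 10.84 to 12.52) also overlapped the other 11.

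Markers of other tissues were not equal across the 9 arrays. The 6 cerebellar markers summed to linear signals of 856 to 1429 in the oxygen arrays, 409 to 503 in isoflurane replicates 2, 4, 5 and 6, and 3948 in isoflurane replicate 10, against 34468 to 45797 in the other 11 arrays. Pcp2 itself was 8.29, 8.76, 7.63 and 8.78 in oxygen replicates 1 to 4, 5.44, 4.46, 5.93 and 4.92 in isoflurane replicates 2, 4, 5 and 6, and 10.67 in replicate 10; it served to choose the arrays, and no test of it is given. The summed striatal markers were also highest in replicate 10, at 11772, with 7173 to 11112 in oxygen and 5461 to 7297 in the other 4 isoflurane arrays. Choroid plexus markers spread from 893 to 13754 within oxygen and reached 562 to 705 in isoflurane replicates 2, 4, 5 and 6 and 1056 in replicate 10. The choroid plexus sum was lower after isoflurane (exact permutation p = 0.0317, two-sided), whereas the cerebellar and striatal sums divided the isoflurane arrays, with replicate 10 above every oxygen array. The choroid plexus sum adds linear signals, so it mainly repeats Ttr, the member with the highest signal. Kcnj13 rose by 1.06, and Folr1, Kl and Sostdc1 differed by -0.30, -0.27 and -0.97 without passing (limma, adjusted p = 0.647, 0.840 and 0.272). Sums for other cell types were tested by the same permutation, and no p of a sum is adjusted for their number. The cortex and interneuron sums gave 0.0159 and 0.0476, and the next lowest, that of oligodendrocytes, gave 0.159. The part of these sums in the results was not tested.

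**Figure D1:**
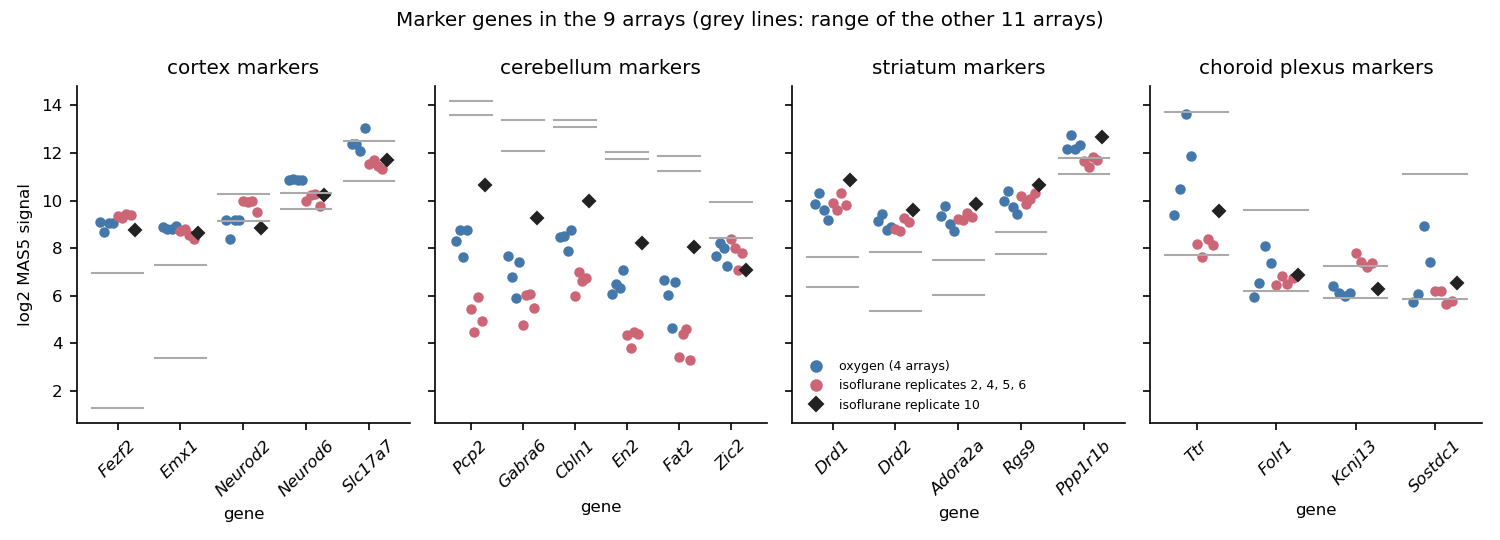
Log2 MAS5 signal (vertical axis) of cortex, cerebellum, striatum and choroid plexus marker genes (horizontal axis) in each of the 9 arrays; each point is 1 array, and the grey lines mark the lowest and highest value in the other 11 arrays. Fezf2 and Emx1 lie above the grey range in all 9 arrays, and isoflurane replicate 10 is the highest of the 9 for 5 of the 6 cerebellar markers and the lowest, at 7.07, for Zic2.

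A value of RNA or amplification quality also differed. The log2 ratio of the 3' to the 5' control probe set of hexokinase was 1.25, 2.31, 1.51 and 2.47 in oxygen replicates 1 to 4, but -0.44, -0.27, -0.75 and -0.36 in isoflurane replicates 2, 4, 5 and 6, and 1.27 in replicate 10. The 4 isoflurane arrays thus lay below every oxygen array, while replicate 10 lay among them; the mean difference was -1.99 (exact permutation p = 0.0317, two-sided, 0.0476 after Benjamini-Hochberg adjustment over 3 transcripts). The Actb ratio ran the other way, at 1.21 to 1.98 in oxygen, 2.30 to 2.86 in replicates 2, 4, 5 and 6, and 1.21 in replicate 10, a difference of 0.71 (exact permutation p = 0.111). The smallest p that 5 against 4 arrays allow is 0.0159. The Gapdh ratio differed by -0.12 (exact permutation p = 0.0317, 0.0476 after the same adjustment). The hexokinase and Actb ratios thus set isoflurane replicates 2, 4, 5 and 6 apart from oxygen, and replicate 10 did not follow them. With the mean ratio of the 3 transcripts as a covariate, limma called 0 probe sets, and 2653 had an unadjusted p under 0.05. That mean was 0.92 to 1.59 in oxygen and 0.71 to 0.92 after isoflurane, and it averages ratios that moved in opposite directions. The covariate nearly separated the groups, so this fit cannot tell it apart from treatment.

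Many transcripts differed between the groups. Of 31042 probe sets, 3880 (12.5%) differed at an adjusted p under 0.05, of which 2637 (8.49%) were higher and 1243 (4.0%) lower after isoflurane. By unadjusted p, 8893 were under 0.05. The direction split depended on scaling. Higher probe sets made up 68.0% of the calls on the deposited scale, 58.4% after quantile normalization and 37.6% when each array was centred on its median, and the median difference over all probe sets was 0.06, -0.07 and -0.15 in the same order. No probe set that passed on the deposited scale changed direction under either other scaling, and 2780 of the 3880 passed under both. The calls also differed in level: the probe sets called higher had a median log2 signal of 7.66 and those called lower of 9.73, against 7.34 over all probe sets, and 43.0% and 87.5% of them were at level 8 or more. In 3281 probe sets (10.6%) all 5 isoflurane arrays lay outside the range of the 4 oxygen arrays on the same side, above it in 1929 (6.21%) and below it in 1352 (4.36%).

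The size of the count rested on which arrays were in the fit. Without isoflurane replicate 2, 4, 5 or 6 it was 1264, 1333, 1487 and 1452, and without oxygen replicate 2, 3 or 4 it was 1818, 1820 and 1610. Without isoflurane replicate 10 it was 7326. In all 9 fits that left out a single array, 1140 probe sets passed, 745 higher and 395 lower. With isoflurane replicates 2, 4, 5 and 6 all left out, which sets replicate 10 alone against oxygen and assumes that it varies as the oxygen arrays do, limma called 0 probe sets, and 1478 had an unadjusted p under 0.05.

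**Figure D2:**
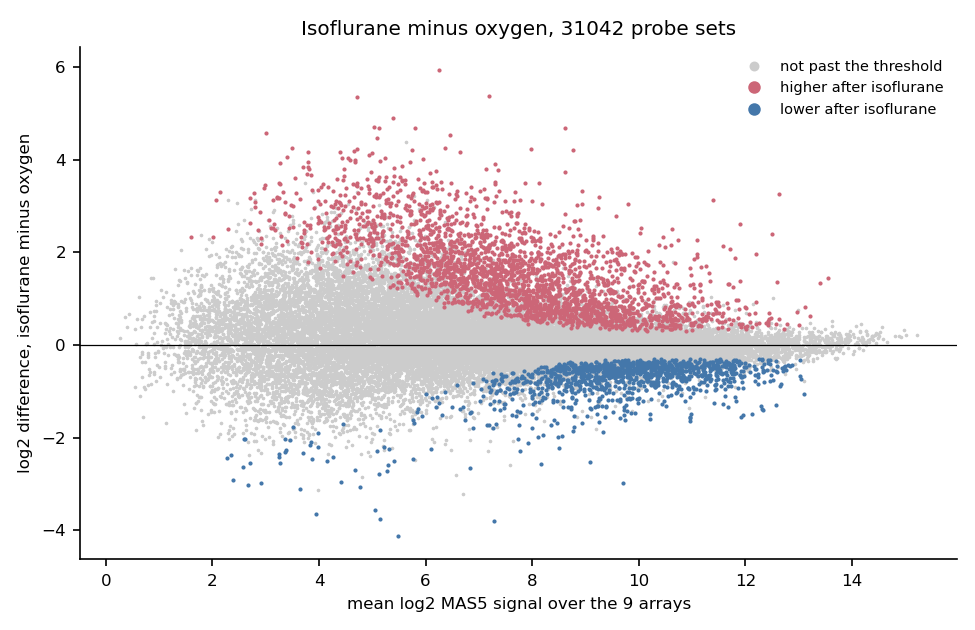
Log2 difference, isoflurane minus oxygen (vertical axis), against the mean log2 signal over the 9 arrays (horizontal axis) for 31042 probe sets; each point is 1 probe set, coloured where it passed an adjusted p under 0.05. The 2637 probe sets called higher lie mainly at low and middle levels (median 7.66), and the 1243 called lower at higher levels (median 9.73).

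Isoflurane replicate 10 stood apart from the other 4 isoflurane arrays. Over all probe sets, replicates 2, 4, 5 and 6 correlated with each other at 0.947 to 0.952, oxygen arrays with each other at 0.927 to 0.941, and replicate 10 with the 4 at only 0.912 to 0.922. Replicate 10 correlated with the oxygen arrays at 0.926 to 0.945, the highest value being with oxygen replicate 1. These correlations are across probe sets, which are not independent, and describe the arrays. The median standard deviation of 12790 bright probe sets was 0.136 among the 4 and 0.204 among the oxygen arrays.

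Replicate 10 nevertheless moved mostly to the same side, by a smaller amount. Among the 2637 higher probe sets it lay beyond every oxygen array in 1411 (53.5%), within their range in 1216 and on the other side in 10, with a median difference from the oxygen mean of 0.65 against 1.61 for the mean of the 4. Among the 1243 lower probe sets it lay beyond every oxygen array in 931 (74.9%), with medians of -0.34 and -0.70. Over all probe sets the share beyond every oxygen array in the direction of the mean difference was 31.0%. Replicate 10 entered the fit that made the calls, and its differences and those of the 4 share the oxygen arrays, so these figures are descriptions with no test. In 333 called probe sets replicate 10 differed from oxygen at least as far as the mean of the 4 did.

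**Figure D3:**
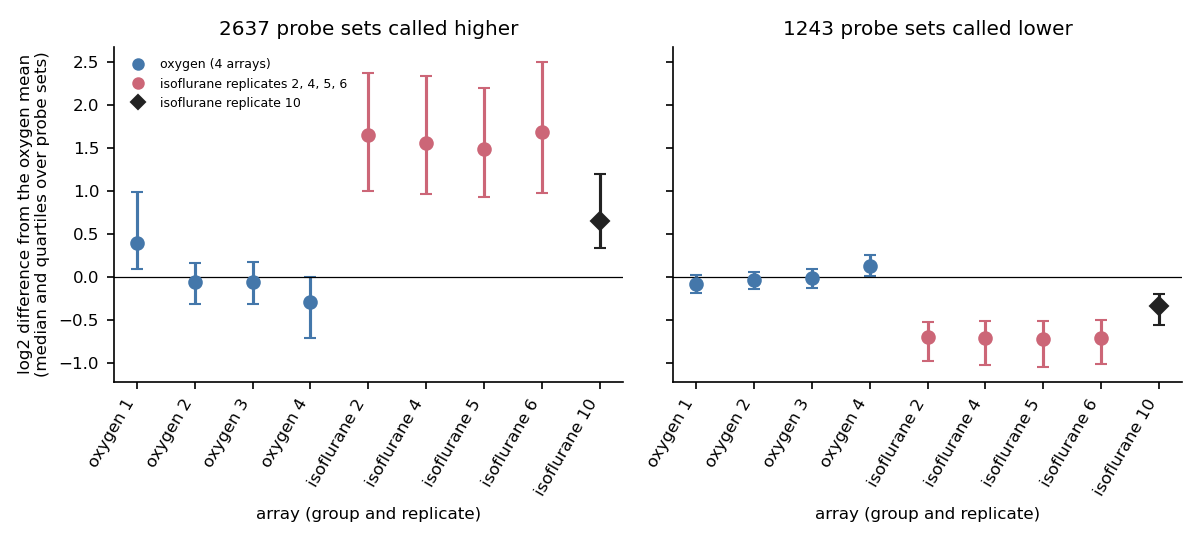
Median and quartiles of the log2 difference from the oxygen mean (vertical axis) in each of the 9 arrays (horizontal axis), over the 2637 probe sets called higher (left) and the 1243 called lower (right). Isoflurane replicate 10 lies between the oxygen arrays and the other isoflurane arrays in both panels, at 0.65 and -0.34, and oxygen replicate 1 is the highest oxygen array on the left, at 0.40.

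Each gene was then taken by its brightest probe set, which gave 14217 genes, of which 1486 (10.5%) passed the test: 654 (4.6%) higher and 832 (5.85%) lower. The largest rises among genes of level 8 or more belonged to genes of different roles. Arhgap5, a GTPase-activating protein, read 9.30, 9.60, 9.71 and 9.34 in oxygen and 12.04, 12.18, 12.35 and 12.23 in isoflurane replicates 2, 4, 5 and 6, with 9.92 in replicate 10. All 5 isoflurane arrays were above all oxygen arrays, replicate 10 only just, and the difference was 2.26 ± 0.42 (SE, adjusted p = 0.0114). Ahi1, a ciliary protein gene linked to Joubert syndrome, read 8.51, 8.26, 8.47 and 7.24 in oxygen, 10.27, 10.34, 10.35 and 10.61 in the 4, and 9.14 in replicate 10. Again no arrays overlapped; the difference was 2.02 ± 0.32 (adjusted p = 0.00844), and a further Ahi1 probe set rose by 1.05. Csrnp3, a nuclear protein, rose by 2.00 ± 0.32, and Herc1, a large ubiquitin ligase, by 1.90 ± 0.34. Rab27b, a small GTPase of secretory vesicles, Lrrc7, which encodes the postsynaptic scaffold densin, Ccdc127, and the noncoding Snhg11 rose by 1.88, 1.88, 1.93 and 1.88. These 8 genes were chosen as the 8 largest rises in which replicate 10 too lay above every oxygen array. The position of replicate 10 was thus fixed by that choice. Each of the 8 passed in all 9 fits that left out an array.

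Other large rises did not extend to replicate 10. Kif1a, a motor that carries synaptic vesicle precursors along axons, read 8.18, 8.98, 9.21 and 8.32 in oxygen and 11.57, 11.80, 11.63 and 11.57 in isoflurane replicates 2, 4, 5 and 6, but 8.90 in replicate 10, inside the oxygen range; its difference was 2.42 ± 0.52 (adjusted p = 0.0162). Cplx2, complexin 2, a regulator of vesicle fusion, showed the same split, with replicate 10 only 0.03 from the oxygen mean and the 4 at 2.46. Dnmt3a, a de novo DNA methyltransferase, was 2.83 above the oxygen mean in the 4 and -0.11 from it in replicate 10. Itsn2, an endocytic scaffold, and Fam168a rose by 2.20 and 2.07, and replicate 10 was within the oxygen range for both. Cdh22, a cadherin, had the largest rise, 2.61, yet its oxygen arrays ran from 8.44 to 12.25, and a dimmer Cdh22 probe set fell by 0.84. The noncoding Meg3 rose by 2.06, with oxygen replicate 1 at 12.57 and the other oxygen arrays at 9.75 to 10.02. Of these 7 genes only Itsn2 passed in all 9 fits that left out an array; Kif1a passed in 8, Fam168a and Cplx2 in 4, Cdh22 in 3, and Dnmt3a and Meg3 in 2.

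Several of the largest falls extended to replicate 10. Epn1, epsin 1, an adaptor of clathrin-coated pits, read 10.42, 10.29, 10.03 and 11.25 in oxygen, 7.63, 7.99, 7.32 and 7.72 in isoflurane replicates 2, 4, 5 and 6, and 9.17 in replicate 10. All 5 isoflurane arrays lay below all oxygen arrays, and the fall was 2.53 on the log2 scale (SE 0.35, adjusted p = 0.00663). Dlgap3, a postsynaptic scaffold that binds Shank proteins and PSD-95, read 11.18, 11.06, 10.57 and 11.59 in oxygen, 9.48, 9.10, 9.28 and 9.62 in the 4, and 10.00 in replicate 10, a fall of 1.60 (SE 0.21, adjusted p = 0.00663) without overlap. Scaf1, a splicing-associated protein, and C8h11orf54 fell by 1.96 and 1.78. Ctxn1, which encodes cortexin, Ppp1r9b, which encodes the spine protein spinophilin, and Grk2, a kinase that desensitises G protein-coupled receptors, fell by 1.49, 1.48 and 1.48. These 7 genes and R3hdm2 were chosen as the 8 largest falls in which replicate 10 lay below every oxygen array. The position of replicate 10 was thus fixed by that choice. R3hdm2 fell by 1.74, but a dimmer R3hdm2 probe set rose by 1.53.

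In 5 further large falls replicate 10 stayed within the oxygen range. Nnat, neuronatin, an imprinted membrane protein, fell by 1.55, Faim2, an inhibitor of apoptosis in neurons, by 1.57, Pianp by 1.56 and Sync by 1.64; replicate 10 differed from the oxygen mean by -0.46, -0.57, -0.25 and 0.29. Ttr, transthyretin, the main secreted product of the choroid plexus, had the largest fall among the named genes of level 8 or more. It read 9.39, 10.47, 13.66 and 11.88 in oxygen, 8.17, 7.63, 8.38 and 8.14 in the 4, and 9.58 in replicate 10. The difference was -2.97 ± 0.70 (adjusted p = 0.0215). The range over the oxygen arrays was wider than this difference, and Ttr passed in 4 of 9 fits that left out an array. Sostdc1 and Folr1, further choroid plexus markers, followed the same order within oxygen, highest in replicate 3, and did not pass the test.

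Where a gene had several probe sets, they did not always move together. Of 259 genes with at least 2 called probe sets, 27 (10.4%) had calls in both directions. Several genes named above or below also had a further probe set that did not pass (limma). It differed by -0.11 for C8h11orf54 (adjusted p = 0.582), 0.09 for Dnm3 (0.752) and 0.14 for Rorb (0.690). For Nlgn2, P2ry12 and Dusp6 it ran against the call, at -0.58 (0.145), 0.50 (0.112) and 0.19 (0.543), while another of Dusp6 was at -1.44 (0.0504). It also did so for Kif1a at -0.24 (0.449) and Nr4a3 at 0.50 (0.374), although another probe set of each passed with the call. At low levels of 4.12 and 4.78, those of Lrrc7 and Kcnc4 ran against it too, at -0.35 (0.821) and 1.04 (0.280). For Shank2, Rab27b and Col1a1 it was at 0.08 (0.927), 0.54 (0.185) and -0.38 (0.156). In other genes, such as Ahi1, Syn1 and Stx1a, a further probe set passed in the same direction. Genes that rose spanned a median of 45.5 kb of genome (471 genes of level 8 or more) and genes that fell 20.0 kb (773 genes), against 25.7 kb for all genes at that level. The median GC content of their promoters was 62.3%, 64% and 62%.

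Promoter sequences were read for the genes named here, because several of them belong to the activity-regulated class in which CREB, a factor activated by calcium and cAMP, binds the cAMP response element TGACGTCA. The sequence is its own reverse complement, so both strands are read together, and no other motif was searched. In the 250 bases before the gene start (RefSeq, rat assembly GRCr8), 5 of 70 named genes with a promoter entry carried it: Ahi1 and Meg3, which rose, and Neurod6, Syn1 and Cct4, which fell. The 3 shown are the riser and the 2 neuronal fallers that passed in every fit leaving out an array, 5' to 3' on the gene's strand, with the element in capitals. Ahi1 lies at chr1:17581781-17582030 on the plus strand, Neurod6 at chr4:86180156-86180405 on the minus strand and Syn1 at chrX:3725495-3725744 on the plus strand.
Ahi1: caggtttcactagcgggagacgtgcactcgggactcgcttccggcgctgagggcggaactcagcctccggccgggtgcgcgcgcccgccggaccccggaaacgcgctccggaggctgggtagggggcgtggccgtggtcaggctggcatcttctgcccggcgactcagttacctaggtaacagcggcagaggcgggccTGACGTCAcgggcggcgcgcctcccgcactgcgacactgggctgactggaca
Neurod6: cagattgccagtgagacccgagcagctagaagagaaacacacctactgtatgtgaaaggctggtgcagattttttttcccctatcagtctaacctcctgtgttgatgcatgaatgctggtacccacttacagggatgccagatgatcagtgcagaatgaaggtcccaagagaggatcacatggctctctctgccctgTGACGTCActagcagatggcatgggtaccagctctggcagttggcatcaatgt
Syn1: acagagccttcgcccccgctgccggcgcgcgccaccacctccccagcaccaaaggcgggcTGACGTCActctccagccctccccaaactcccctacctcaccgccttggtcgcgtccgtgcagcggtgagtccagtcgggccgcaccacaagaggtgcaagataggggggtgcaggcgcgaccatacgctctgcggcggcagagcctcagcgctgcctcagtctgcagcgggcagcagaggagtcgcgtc
The element stood 52, 53 and 190 bases before the start, counted to its first base. It was present in 16 of 393 promoters of genes that rose (4.07%), in 21 of 654 of genes that fell (3.21%) and in 220 of 6813 of all genes at level 8 or more (3.23%), and in 1.70% of all 27457 promoters. A match describes the letters only.

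Gene lists by cell type and function were described next, by counts and medians beside the same over all genes (4.6% higher, 5.85% lower, median -0.03 as deposited, -0.11 after quantile normalization and -0.24 after centring, when 2.1% of all genes were higher and 14.8% lower). Across 30 lists, 848 genes were measured, of which 55 rose and 88 fell; 13 and 34 of these passed in all 9 fits that left out an array. Among the 8100 genes at level 8 or more, 5.81% were higher and 9.54% lower, with a median of -0.07 as deposited. Falls in a list of bright genes are to be read beside this larger share. Genes named below as list members that passed are all such members of their list, or those of lowest p. In bulk tissue, fewer cells of a type and less RNA per cell cannot be told apart.

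**Figure D4:**
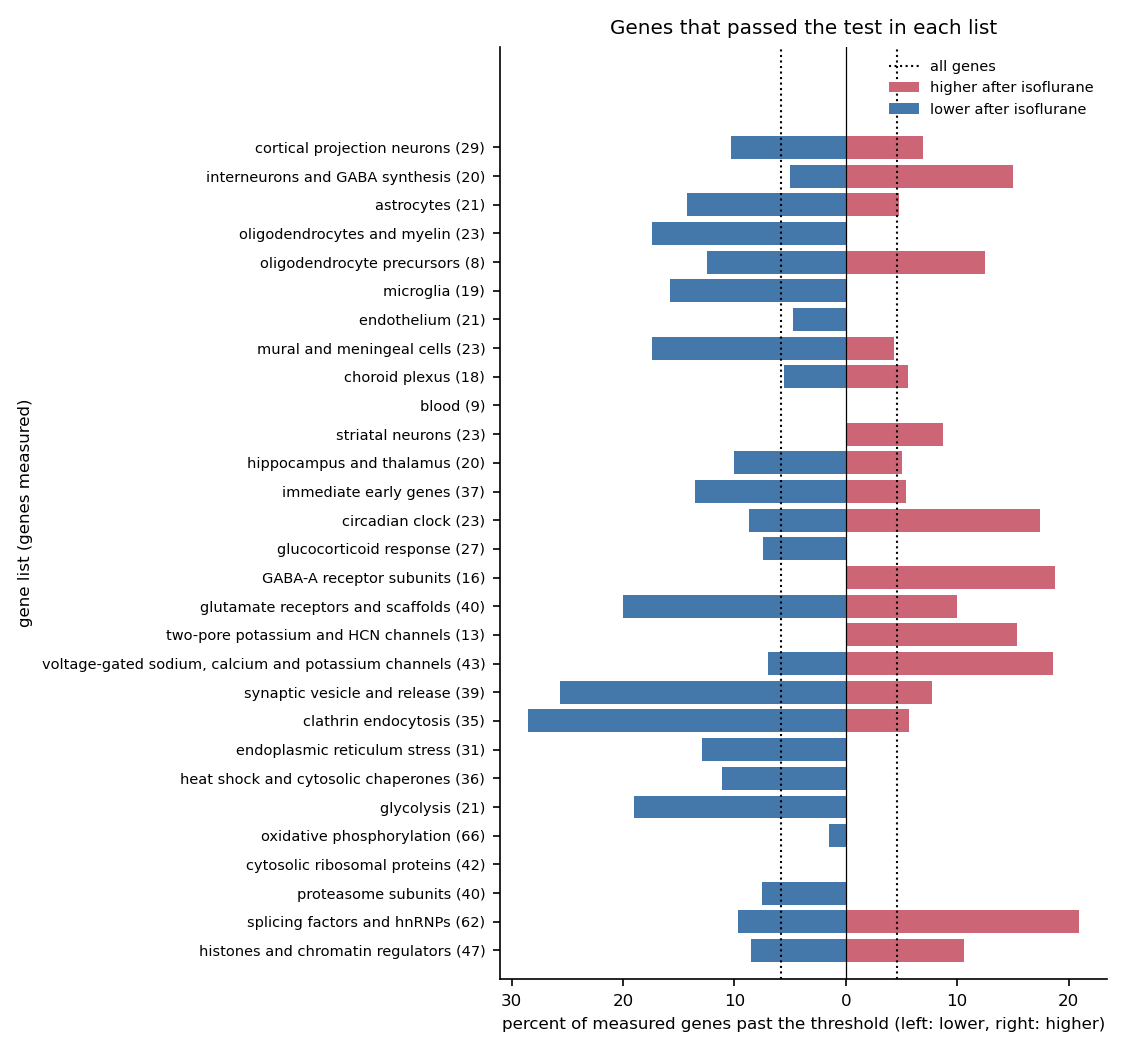
Percent of the measured genes of each list that passed the test (horizontal axis), lower after isoflurane to the left and higher to the right, for each gene list except that of cerebellar neurons (vertical axis, genes measured in brackets). The dotted lines mark the shares over all genes, 4.6% higher and 5.85% lower. The shares among genes at level 8 or more, 5.81% higher and 9.54% lower, are not drawn.

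Among 29 genes of cortical projection neurons, 2 rose and 3 fell. Neurod6, a transcription factor of glutamatergic cortical neurons, read 10.85, 10.92, 10.88 and 10.88 in oxygen, 10.00, 10.25, 10.30 and 9.77 in isoflurane replicates 2, 4, 5 and 6, and 10.24 in replicate 10. Its oxygen arrays were nearly equal and all isoflurane arrays lay below them, a fall of 0.77 (SE 0.12, adjusted p = 0.00818). Slc17a7, the vesicular glutamate transporter VGLUT1, fell by 0.93 and Pou3f1, a transcription factor, by 0.66, with replicate 10 below every oxygen array for both. Rorb, a transcription factor of layer 4, rose by 1.67 ± 0.28 (adjusted p = 0.00938), from 8.15, 8.36, 8.55 and 7.24 to 9.82, 10.23, 9.90 and 9.78, with 9.01 in replicate 10. Foxp2, of deep-layer neurons, rose by 0.63 (adjusted p = 0.041) but passed in 2 of 9 fits that left out an array and not after centring (adjusted p = 0.15). The list median was 0.06, 0.08 after quantile normalization and -0.15 after centring. The sum of the cortex markers was 7896 to 12187 in oxygen, 5181 to 6640 in the 4 and 6015 in replicate 10, against 3334 to 8114 in the other 11 arrays. Between isoflurane and oxygen the exact permutation p was 0.0159, two-sided, the smallest the design allows and not adjusted for the number of sums. Slc17a7 and Neurod6, given above, are among the markers summed, and Fezf2 and Neurod2 differed the other way, by 0.26 and 0.66, without passing (adjusted p = 0.285 and 0.105).

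Of 20 genes of interneurons and GABA synthesis, 3 rose and 1 fell. Gad2, which encodes the GABA-synthesising enzyme GAD65, read 8.61, 8.15, 8.51 and 7.72 in oxygen, 9.32, 9.32, 9.42 and 9.04 in the 4, and 9.65 in replicate 10. All isoflurane arrays exceeded all oxygen arrays and replicate 10 was the highest; the rise was 1.10 ± 0.19 (adjusted p = 0.00968). Gad1, which encodes GAD67, rose by 0.35 (adjusted p = 0.0251), from 12.51 to 12.59 in oxygen to 12.74 to 13.00 after isoflurane, but after centring the rise was 0.14 and did not pass (adjusted p = 0.46). Kcnc1, a potassium channel of fast-spiking cells, rose by 0.66 (adjusted p = 0.0152; 0.062 after centring). Sst, somatostatin, fell by 0.53, with replicate 10 at 11.74, close to the oxygen arrays at 11.76 to 11.88. Pvalb and Vip, markers of other interneuron classes, differed by -0.03 and 0.02 and did not pass. Gad2 and Kcnc1 passed in all 9 fits that left out an array, and Gad1 and Sst in 2. The 5 interneuron markers measured summed to 13384 to 13701 in oxygen and 13616 to 14984 in the 4, with 15409 in replicate 10. Of 23 genes of striatal medium spiny neurons, which are GABAergic, 2 rose: Scn4b, a sodium channel subunit, by 0.44, and Tac1, the precursor of substance P, by 1.10. Replicate 10, where striatal markers were highest, differed from the oxygen mean by 0.52 and 1.57 for these genes and the 4 by 0.42 and 0.99. Scn4b did not pass after centring (adjusted p = 0.24).

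Among 39 presynaptic genes of synaptic vesicles and release, 3 rose and 10 fell (list median -0.14 as deposited, -0.24 after quantile normalization and -0.35 after centring, the order used below). Syn1, synapsin 1, which tethers vesicles, read 12.67, 12.73, 12.73 and 13.02 in oxygen, 11.81, 11.99, 12.05 and 11.97 in the 4, and 12.15 in replicate 10; no arrays overlapped and it fell by 0.79 (SE 0.10, adjusted p = 0.00663), with a further probe set falling by 1.17. Stx1a, syntaxin 1A, the plasma membrane SNARE, read 11.68, 11.55, 11.64 and 11.90 in oxygen, 10.36, 10.76, 10.62 and 10.69 in the 4, and 11.12 in replicate 10, a fall of 0.98 (SE 0.14). The other falls were Syt11, Slc17a7, Syt5, Rims1, Syp, Vamp2, Rab3a and Erc1, by 0.44 to 0.94. The rises were Cplx2, Sv2b, a vesicle glycoprotein, by 1.44, and Rims2, an active zone protein, by 0.66. Of the 13 called genes, 5 passed in all 9 fits that left out an array: Syn1, Stx1a, Slc17a7, Syp and Sv2b. Syt5 passed in 8, Syt11, Vamp2 and Cplx2 in 4, Rab3a and Erc1 in 3, Rims2 in 2 and Rims1 in 1. Replicate 10 lay beyond every oxygen array, in the direction of the change, in 10 of these 13 genes. It did so in 8 of the 10 falls and 2 of the 3 rises, against 642 of 832 falls and 381 of 654 rises over all genes. With it left out, 7 genes of the list rose and 13 fell.

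Clathrin-mediated endocytosis, which retrieves vesicle membrane, gave 2 rises and 10 falls among 35 genes (median -0.23, -0.21 and -0.44). Beside Epn1, the falls were between 0.34 and 0.98 and took in Ptpn23, Ap2a2, Ap2b1, Itsn1, Cltb, Dab2, Fcho2, Epn2 and Hip1r. Of the 10, Epn1 and Ptpn23 passed in all 9 fits that left out an array. Dnm3, dynamin 3, a GTPase that cuts vesicles from the membrane, rose against this direction. It read 8.38, 7.69, 7.56 and 7.45 in oxygen, 9.98, 9.96, 9.75 and 9.82 in the 4, and 8.64 in replicate 10, a rise of 1.86 ± 0.28 (adjusted p = 0.00844) without overlap. Itsn2, given above, was the other rise, and its paralogue Itsn1 fell by 0.51.

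On the postsynaptic side, 4 of 40 glutamate receptor and scaffold genes rose and 8 fell (median -0.20, -0.22 and -0.41). Several scaffold genes of the list fell. Beside Dlgap3, Shank2, an organiser of the postsynaptic density, read 11.45, 11.61, 11.81 and 11.69 in oxygen, 10.90 to 11.01 in the 4, and 10.90 in replicate 10. Replicate 10 moved here as far as the 4, and the fall was 0.68 (SE 0.09, adjusted p = 0.00663). Shank3 fell by 0.95, with replicate 10 the lowest array at 10.23, and Homer3 by 1.05. Cacng8 and Cnih2, auxiliary subunits of AMPA receptors, fell by 1.48 and 1.21, and the kainate receptor subunit Grik5 by 0.46. Homer3 passed in 2, Grik5 in 3 and Cacng8 in 8 of the 9 fits that left out an array. Receptor subunits themselves divided: Gria2 and Gria3 of the AMPA type rose by 0.71 and 0.80, Grik2 of the kainate type by 0.74 and Grin2b of the NMDA type by 1.19, whereas Grin1, the obligatory NMDA subunit, fell by 0.64 and had a further probe set called in the opposite direction. The rises of Gria2, Gria3 and Grin2b were almost absent from replicate 10 (0.09, 0.17 and 0.01 from the oxygen mean, against 0.86, 0.96 and 1.49 in the 4), and each passed in 2 of 9 fits that left out an array.

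Among the direct targets of the anaesthetic, 3 of 16 genes of GABA-A receptors and their synapses rose and none fell. Gabra2, the alpha 2 subunit, read 10.15, 10.29, 10.31 and 9.92 in oxygen, 11.25, 11.13, 10.86 and 10.52 in the 4, and 10.55 in replicate 10, a rise of 0.69 ± 0.16 (adjusted p = 0.0213) without overlap. Gabra4, the alpha 4 subunit, rose by 1.07 and Nlgn2, the adhesion protein of inhibitory synapses, by 0.99. After centring, Gabra2 and Gabra4 no longer passed (adjusted p = 0.064 and 0.057), 1 gene of the list rose and 1 fell, and the median went from 0.09 to -0.12. All 3 lost the call when single arrays were left out, passing in 5, 2 and 2 of 9 fits. Of 13 leak potassium and HCN channel genes, 2 rose. Kcnk1, the leak channel TWIK-1, read 9.44, 9.03, 9.07 and 9.10 in oxygen, 10.00, 9.93, 9.73 and 9.56 in the 4, and 9.74 in replicate 10; it rose by 0.63 ± 0.13 (adjusted p = 0.0136), and replicate 10 moved by 0.58 and the 4 by 0.64. Pex5l, TRIP8b, a trafficking subunit of HCN channels, rose by 1.01, with replicate 10 within the oxygen range.

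Voltage-gated channels gave 8 rises and 3 falls among 43 genes (median 0.15, 0.07 and -0.06, so the sign of the median turned after centring). The falls were those of Cacnb3 and Cacnb1, calcium channel beta subunits, by 1.28 and 1.00, and of Kcnc4, a potassium channel, by 1.04. Cacnb3 read 11.18, 11.04, 10.88 and 11.54 in oxygen, 9.86, 9.69, 9.79 and 9.67 in the 4, and 10.35 in replicate 10 (SE 0.16, adjusted p = 0.00663). All 3 passed in all 9 fits that left out an array. Beside Scn4b and Kcnc1, the rises took in the pore-forming potassium channel genes Kcna1 and Kcna4, by 1.17 and 1.05, and Kcnb2 by 2.75, with replicate 10 at -0.38 from the oxygen mean for Kcnb2. Cacna1e, Cacna1d and Scn1a, pore-forming calcium and sodium subunits, rose by 2.35, 0.94 and 0.57. Kcna1, Kcna4 and Kcnc1 passed in all 9 of those fits, Cacna1e and Scn4b in 5, and Cacna1d, Scn1a and Kcnb2 in 2. After centring, 4 genes of the list rose and 6 fell, where the shares over all genes were 2.1% and 14.8%.

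**Figure D5:**
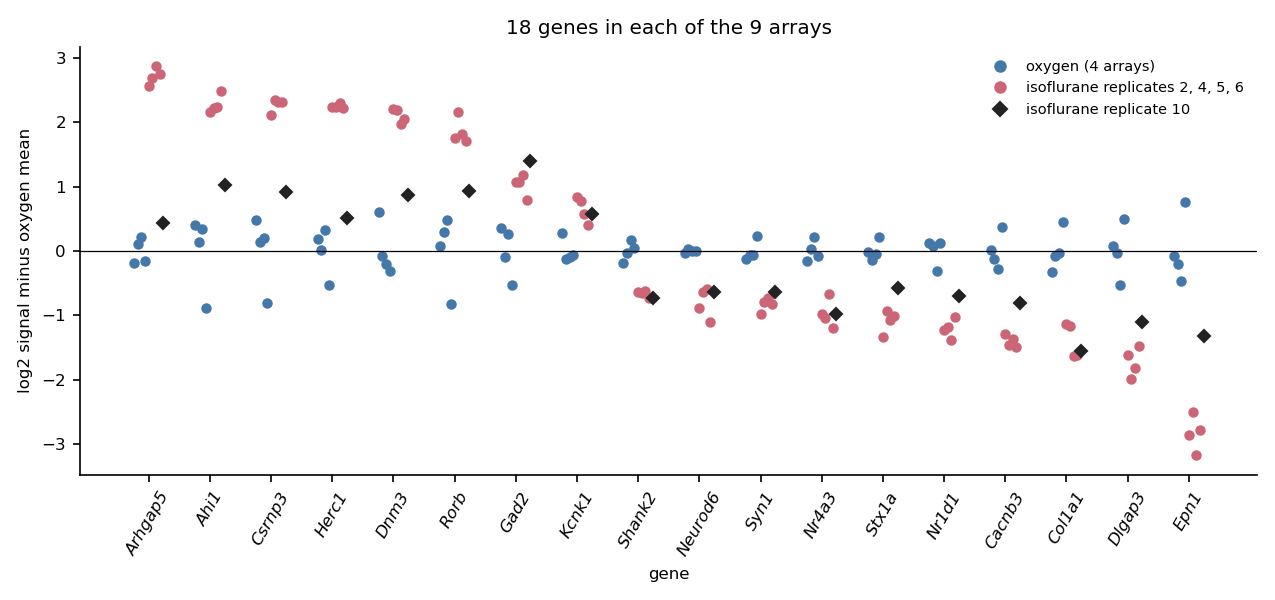
Log2 signal minus the oxygen mean (vertical axis) of 18 genes (horizontal axis) in each of the 9 arrays; each point is 1 array. All 18 genes shown are ones in which isoflurane replicate 10 lay beyond every oxygen array. Isoflurane replicate 10 lies with or beyond the other isoflurane arrays for Gad2, Kcnk1, Shank2, Nr4a3 and Col1a1 and between the groups for Arhgap5, Herc1 and Epn1.

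Activity-regulated transcripts did not move as a block. Of 37 immediate early genes, 2 rose and 5 fell (median -0.14, -0.17 and -0.35). Nr4a3, an orphan nuclear receptor induced by activity, read 9.83, 10.00, 10.20 and 9.89 in oxygen, 9.01, 8.93, 9.31 and 8.79 in the 4, and 9.00 in replicate 10. It fell by 0.97 (SE 0.13, adjusted p = 0.00663), with replicate 10 at -0.98 and the 4 at -0.97 from the oxygen mean. Junb and Jun, subunits of the AP-1 factor, fell by 0.92 and 0.52, Dusp6, a phosphatase of ERK kinase, by 0.62 and Vgf, a secreted neuropeptide precursor, by 0.42; these 4 passed in 1 to 3 of 9 fits that left out an array. Gadd45b and Fbxo33 rose by 0.67 and 0.39, and neither passed after centring. Fos read 7.82 to 10.38 in oxygen and 8.46 to 9.68 after isoflurane, and Arc, which encodes a synaptic plasticity protein, read 8.75 to 11.12 and 8.22 to 9.79. Both varied more among oxygen rats than between the groups (adjusted p = 0.828 and 0.299), and Bdnf, a neurotrophin, differed by -0.15 (adjusted p = 0.539).

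Of 23 clock genes, 4 rose and 2 fell. Nr1d1, REV-ERB alpha, a repressor in the clock loop, read 10.05, 10.01, 9.61 and 10.05 in oxygen, 8.70, 8.74, 8.55 and 8.90 in the 4, and 9.22 in replicate 10. All isoflurane arrays lay below all oxygen arrays, and the fall was 1.11 (SE 0.15, adjusted p = 0.00663). Per2 and Per3, period genes that repress the clock activators, rose by 0.70 and 2.27; for both, replicate 10 was within the oxygen range (9.28 and 7.39, against 8.90 to 9.53 and 4.92 to 7.71 in oxygen). Per2 passed in 2 and Per3 in 4 of the 9 fits that left out an array. Per1 differed by 0.10 and did not pass (adjusted p = 0.718). Rorb, which is also a clock factor, was given above; Hlf, an output factor, rose by 0.66 and Usp2, a ubiquitin protease under clock control, fell by 0.47, and they passed in 2 and 3 of the 9 fits. After centring, 2 genes rose and 3 fell, and Per2 did not pass (adjusted p = 0.061). Among 27 genes of the glucocorticoid response, Ehd3, an endosomal protein, fell by 1.21 and Sdc4, a syndecan, by 0.53, while Fkbp5, a standard reporter of glucocorticoid receptor activity, differed by 0.10 (adjusted p = 0.558). After quantile normalization 3 genes of this list rose and 2 fell.

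RNA processing genes held the largest number of rises among the 30 lists. Of 62 splicing factors and hnRNPs, 13 rose and 6 fell on the deposited scale, but 4 rose and 10 fell after centring (2.1% and 14.8% over all genes), with medians of 0.15 and -0.06. Hnrnpu, which binds nascent RNA, read 11.73, 11.37, 11.62 and 11.42 in oxygen, 12.20, 12.22, 12.26 and 12.04 in the 4, and 11.88 in replicate 10, a rise of 0.59 ± 0.11 (adjusted p = 0.0123; 0.049 after centring). A further Hnrnpu probe set, at a level of 11.68, differed by -0.15 and did not pass (limma, adjusted p = 0.489), and a dimmer probe set rose by 1.94. Raver1, a partner of the splicing repressor PTBP1, fell by 1.80, from 8.13 to 8.58 in oxygen to 5.56 to 6.58 in the 4 and 7.63 in replicate 10. Hnrnpu and Raver1 were the 2 of the 19 that passed in all 9 fits that left out an array. Of 47 histone and chromatin genes, 5 rose and 4 fell. Chd3, a remodelling ATPase of the NuRD complex, fell by 0.77, with replicate 10 the lowest array at 9.76 against 10.16 to 10.44 in the 4 and 10.73 to 11.10 in oxygen. Arid1a, a subunit of the BAF complex, fell by 0.54, Hdac6 by 0.64 and the linker histone gene H1f10 by 1.18; all 4 falls passed in all 9 fits. The rises were those of Dnmt3a, given above, H1f4 by 0.93, Kmt2e by 0.54, Kdm2a by 0.43 and Kdm3a by 0.40; Kmt2e passed in all 9 fits and each of the others in 2.

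The chaperone and metabolic genes that passed all fell. Of 31 genes of endoplasmic reticulum stress, none rose and 4 fell: Calr, calreticulin, by 1.26, Hyou1 by 1.08, P4hb, protein disulfide isomerase, by 0.63 and Pdia6 by 0.31. Calr read 12.02, 12.12, 12.04 and 12.23 in oxygen, 10.85, 10.31, 10.40 and 10.87 in the 4, and 11.78 in replicate 10, which left its isoflurane arrays below oxygen but replicate 10 near it. Hspa5, BiP, the central chaperone of that response, differed by 0.20 and did not pass (adjusted p = 0.254). Calr and P4hb passed in all 9 fits that left out an array, Hyou1 in 6 and Pdia6 in 2. Among 36 cytosolic chaperone genes, none rose and 4 fell, Fkbp4, Cct4, Stip1 and Cct3, with replicate 10 between -0.13 and 0.03 from the oxygen mean. None of the 4 passed in all 9 fits that left out an array.

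In glycolysis, none of 21 genes rose and 4 fell: Pfkl, a phosphofructokinase, by 1.34, Eno1, enolase, by 0.88, Hk1, the main brain hexokinase, by 0.72 and Gpi by 0.44. Pfkl and Hk1 passed in all 9 fits that left out an array, and Eno1 and Gpi in 2. A dimmer Hk1 probe set rose by 1.41, and the hexokinase 3' to 5' ratio given above also differed between the groups. In large housekeeping complexes few genes passed. By limma, none of 42 cytosolic ribosomal protein genes passed (4 had an unadjusted p under 0.05). Of 66 oxidative phosphorylation genes, Ndufb11 fell by 0.68, and of 40 proteasome genes Psmb7, Psmd9 and Adrm1 fell by 0.68, 0.67 and 0.63. Ndufb11 passed in 1 of the 9 fits that left out an array and not after quantile normalization (limma, adjusted p = 0.064). Psmb7, Psmd9 and Adrm1 passed in 2, 1 and 3 of those fits. Medians of these 3 lists were 0.01, 0.01 and -0.06 as deposited.

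Glial and vascular genes that passed mostly fell. Of 21 astrocyte genes, Gfap, the intermediate filament of astrocytes, fell by 0.78, Atp1b2 by 0.54 and Cbs by 0.90, and Dio2, the enzyme that activates thyroid hormone, rose by 1.56. Gfap passed in all 9 fits that left out an array, Atp1b2 in 8, Dio2 in 3 and Cbs in 1. After quantile normalization no gene of the astrocyte list rose. Gfap read 12.61, 12.94, 13.01 and 12.99 in oxygen, 12.07, 11.75, 11.86 and 12.22 in the 4, and 12.63 in replicate 10, inside the oxygen range. Of 23 oligodendrocyte and myelin genes, none rose and 4 fell: Sox10, the lineage transcription factor, by 0.91, Myrf, which drives myelin genes, by 0.68, Fa2h, which hydroxylates myelin lipids, by 0.66, and Gpr37 by 0.40. Sox10 and Fa2h passed in all 9 fits that left out an array, and Myrf and Gpr37 in 2. The structural myelin genes did not follow, and Mbp differed by 0.24 (adjusted p = 0.401). Of 19 microglial genes, none rose and Csf1r, P2ry12 and Gpr34 fell by 0.56, 0.62 and 0.68; none of these passed in all 9 fits that left out an array. Among precursors of oligodendrocytes, Vcan, a proteoglycan, rose by 1.81 and C1ql1 fell by 0.81. Vcan passed in all 9 of those fits and C1ql1 in 2.

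Of 23 mural and meningeal genes, 1 rose and 4 fell. Col1a1, the fibrillar collagen of meningeal fibroblasts, read 8.18, 8.43, 8.48 and 8.96 in oxygen, 7.37, 7.35, 6.88 and 6.89 in the 4, and 6.96 in replicate 10. Replicate 10 lay among the 4, and the fall was 1.42 (SE 0.20, adjusted p = 0.00718). Islr, another fibroblast gene, fell by 1.28, Col3a1 by 0.81 and Slc13a4 by 0.55, whereas Rgs5, a pericyte gene, rose by 1.47. Col1a1 and Islr passed in all 9 fits that left out an array, Col3a1 in 5, Rgs5 in 3 and Slc13a4 in 2. Among 21 endothelial genes, Slco1c1, a thyroid hormone transporter of the blood-brain barrier, fell by 0.41, and Cldn5, a tight junction claudin, differed by 0.24 (adjusted p = 0.363). By limma, none of 9 blood genes passed (1 with an unadjusted p under 0.05). Kcnj13, a potassium channel of the choroid plexus, rose by 1.06 while Ttr fell, and it did not pass after quantile normalization (adjusted p = 0.086) or centring (0.061). Of 20 hippocampal and thalamic genes, Wfs1 fell by 1.24, Rgs16 rose by 1.09 (adjusted p = 0.063 after centring) and Fibcd1 fell by 3.75, the last with replicate 10 at 0.85, near the floor of the scale. Wfs1 passed in all 9 fits that left out an array, Fibcd1 in 4 and Rgs16 in 2. For the list of cerebellar neuron genes, which holds the gene that chose the arrays, no count is given.

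The comparison was set against the same contrast in the other 11 arrays, 5 isoflurane and 6 oxygen, which carried a cerebellum-like profile. In a single fit over all 20 arrays, the effect of isoflurane differed between the 9 and the 11 arrays in 2226 probe sets (7.17%), 1816 higher and 410 lower in the 9. Within the 11, 1 probe set passed and 2990 had an unadjusted p under 0.05. Of the 3880 probe sets called in the 9 arrays, 1706 also passed this test of the difference, 1440 of them rises and 266 falls. In 2234 (57.6%) the sign was the same in the other 11, which held for 1227 of the 2637 rises and 1007 of the 1243 falls. The same share over all probe sets is not given. These counts therefore do not show that falls were shared with the other 11 arrays more than rises were. Herc1, Ahi1, Kcnc1, Snhg11 and Nlgn2 were among the named genes with a tested difference (adjusted p = 0.00719, 0.00700, 0.00693, 0.00689 and 0.00729), and so were the falls of Ehd3, Grk2 and Calr (0.00766, 0.00851 and 0.00988). Nr1d1, Syn1, Stx1a, Shank2 and Nr4a3 did not pass that test (adjusted p = 0.39, 0.75, 0.86, 0.58 and 0.32). Their differences in the other 11 arrays were -0.76, -0.62, -0.82, -0.46 and -0.33. Leaving out isoflurane replicates 2, 4, 5 and 6 brought the 2226 to 19, and leaving out replicate 10 raised it to 4992. It fell to between 1157 and 1474 without any of isoflurane replicates 2, 4, 5, 6 or 7 or oxygen replicates 3 or 4, singly.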

How the data were processed

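The authors deposited 1 table of linear signal intensity per probe set and array, which per the submitters' processing notes came from MAS5 as run by Affymetrix Expression Console. Its settings, detection calls and scan batches were not used here. The table holds 31099 probe sets; 57 controls were left out. The deposited intensity of each array had a trimmed mean of 500.1 to 500.2 with 2% trimmed at each end. Signals were put on the log2 scale without rescaling, after a floor of 1 that touched 853 values in the 9 arrays. The number of arrays limits the precision.

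Probe sets were named from the platform annotation: 20826 had 1 symbol, 436 several and 9780 none; 20758 symbols were updated by gene ID through RefSeq. Isoflurane was compared with oxygen by limma 3.58.1 (R 4.3.3; lmFit, eBayes with intensity trend), two-sided, Benjamini-Hochberg adjusted over 31042 probe sets, threshold 0.05. Single values were tested by exact permutation. Code was tested on simulated data. Alternatives were scaling, pseudocount, low-signal filter, variance settings, array weights, all 20 arrays, 3'/5' ratio as covariate, replicate block, and arrays left out.

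Genes named are those at level 8 or more with the 10 largest rises and falls, the 8 largest of each in which replicate 10 lay beyond every oxygen array, the 2 members of lowest p in each list, and preset genes called or not; further list members are named where they complete a list's calls or were chosen after their values were seen. Symbols starting with LOC, RGD or AABR were skipped. The arrays, members and lists were chosen with earlier results of these data known. Replicate numbers 2 and 4 occur in both groups, and nothing states that they pair the arrays. Deviations of these arrays from their group means correlated at -0.0036 and -0.033. The isoflurane mean includes replicate 10, so these values cannot show whether arrays were processed together. Figures were drawn with matplotlib 3.10.9.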

Additional observations from a re-analysis of the deposited data

Results flagged for a closer look

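Among the named genes, single arrays that stood apart from their own group were sought by Dixon's gap test in 174 sets of values. The genes were chosen on these data, some of them by where replicate 10 lay, and replicate 10 had been set apart beforehand. The flags therefore describe the arrays and are not set against a chance rate. There were 36 flags, of which 25 were isoflurane replicate 10. That array was the lowest isoflurane array, apart from the other 4, for genes that were high in them: Cdh22 at 11.85 on the log2 scale, Kif1a at 8.90, Arhgap5 at 9.92, Dnmt3a at 6.70, Itsn2 at 8.37, Ahi1 at 9.14, Csrnp3 at 9.46, Cplx2 at 11.13, Ccdc127 at 9.07, Herc1 at 9.39, Lrrc7 at 8.15, Dnm3 at 8.64 and Fezf2 at 8.78. It was the highest for genes that were low in them: Scaf1 at 8.74, C8h11orf54 at 8.48, Sync at 12.17, Faim2 at 11.26, Pianp at 9.99, Ctxn1 at 12.48, Cacnb3 at 10.35, P4hb at 11.17, Cct4 at 11.68, Hk1 at 11.77, Ndufb11 at 12.48 and Psmb7 at 12.23.

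Within oxygen, replicate 1 was apart from the others for Meg3 (12.57) and Kcnk1 (9.44), both high, and for Nnat (12.19) and Gfap (12.61), both low. Replicate 4 was high for C8h11orf54 (10.69) and Csf1r (10.65) and low for Ccdc127 (7.64). Replicate 2 was low for Slco1c1 (10.47) and Neurod2 (8.40), and replicate 3 for Nr1d1 (9.61) and Ehd3 (8.82).

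The effect of isoflurane differed between the 9 arrays and the other 11, by the interaction term of the limma fit over 20 arrays, for 36 named genes. The effect was higher in the 9 arrays for Cdh22 by 3.27 on the log2 scale, Kif1a 2.85, Meg3 2.78, Dnmt3a 2.72, Itsn2 2.30, Fam168a 2.19, Snhg11 2.18, Ahi1 2.10, Herc1 2.06, Lrrc7 2.03, Cplx2 1.99, Arhgap5 1.98, Csrnp3 1.78, Vcan 1.67, Nlgn2 1.67, Rorb 1.64, Ccdc127 1.61, Rab27b 1.58, Dnm3 1.57, Pex5l 1.38, Neurod2 1.22, Gad2 1.12 and Kcnc1 1.02. It was lower for Grk2 (-1.31), Faim2 (-1.30), Ehd3 (-1.29), Nnat (-1.26), Calr (-1.24), Wfs1 (-0.98), Psmb7 (-0.85), Gfap (-0.81), Cct4 (-0.78), Neurod6 (-0.76), Cct3 (-0.64), Sdc4 (-0.62) and P4hb (-0.54). The arrays had been divided by Pcp2, so treatment effects in these divisions are set beside a difference in tissue profile, and which of the divisions' other differences they follow was not tested.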

How the results depend on the processing

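Of the 77 named genes past the threshold, 48 passed in all 9 fits that left out an array and 71 under both other scalings. Without isoflurane replicates 2, 4, 5 and 6, Dnmt3a turned to -0.11, Sync to 0.29, Ndufb11 to 0.13, Fezf2 to -0.20, Neurod2 to -0.15, Cldn5 to -0.16 and Mbp to -0.012. The 3'/5' covariate turned Fezf2 to -0.00588, Fos to 0.79 and Arc to 0.10, leaving out single arrays gave Fos -0.65 to 0.20 (0.20 without oxygen replicate 4), and centring turned Fkbp5 to -0.11 and Hspa5 to -0.0077; apart from Dnmt3a, Sync and Ndufb11, none of these genes had passed. The 3880 calls became 2503 (1231 higher) among probe sets above the 60th percentile of signal, 1114 (801 higher, 313 lower) without the intensity trend, 7496 (4743 and 2753) with array weights, and 0 with the covariate or without the 4 arrays. The lower calls became 3213 after centring and 1966 in the fit over all 20 arrays. The 143 calls in lists (55 higher, 88 lower) became 35 (7 and 28) without the trend, 251 (100 and 151) with array weights, 26 higher and 164 lower after centring, and 0 with the covariate or without the 4. The 2226 interaction calls became 3580 after centring, 1054 above the 60th percentile and 19 without the 4. Leaving out single arrays gave 1264 to 7326 calls (802 to 4381 higher, 462 to 2945 lower), 54 to 254 in lists (14 to 105 higher, 38 to 149 lower), 1157 to 4992 interaction calls, and 3' to 5' differences of 0.57 to 0.98 for Actb (exact p = 0.0286 without isoflurane replicate 10), -0.15 to -0.0875 for Gapdh and -2.34 to -1.80 for hexokinase. The replicate block, with numbers 2 and 4 shared and 1 residual degree of freedom, gave 4244 calls (3045 and 1199). Pseudocounts of 16 and 64 and the robust variance gave 4034, 4038 and 3913. The cause of these shifts was not tested. Fewer arrays and, in the filtered fit, fewer probe sets were tested by construction. Signal over background is not given, so low signals, such as Fibcd1's, have no detection call here.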

Other observations

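Isoflurane replicate 10 differed from oxygen as far as the other isoflurane arrays for some named genes and hardly at all for others. Its difference was -1.55 for Col1a1 and -1.17 for Chd3, against -1.39 and -0.67 in the 4, and 0.03 for Cplx2 and -0.08 for Psmb7, against 2.46 and -0.83. These values share the oxygen arrays and carry no test.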
